A study of Homo sapiens with 29 samples.

Results

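Potassium channel genes were followed through a course of BRAF inhibition in melanoma cells. They were taken as the rows of the count table whose symbol starts with KCN and goes on with letters and a number, with at least 100 counts summed over all 29 libraries. Of 95 such symbols, 54 reached that minimum, out of 60675 rows in all, and 41 did not, of which 4 had no count. The members just inside the minimum were KCNK10 with 102 counts, KCNE2 with 103 and KCNT2 with 120. The symbols just outside it were KCNE5 with 94, KCNH7 with 83 and KCNJ4 with 75. By symbol, the 54 members were 7 inward rectifiers (KCNJ), 9 two-pore channels (KCNK), 7 calcium- or sodium-activated channels (KCNMA, KCNN, KCNT), 18 voltage-gated pore subunits and 13 auxiliary subunits (KCNAB, KCNIP, KCNE, KCNMB). Members were thus chosen by their summed counts, so a member low in most groups had to be higher in some group to be included. A count of called members is given as a description beside the same count over all genes.

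All libraries were polyadenylated RNA of WM239A, an established human line from a metastatic melanoma. Vector cells are named by that title and the parent line alone, and all other groups carried extra BRAF-V600E, an overactive form of the kinase BRAF found in many melanomas, overexpressed in the same line. The drug was LGX818 (encorafenib), an inhibitor of the mutant kinase, at 500 nM wherever it was given. Untreated cells had no drug, and drug was given for 20 h or for 7 days (week 1). In the continuous arm it went on to 14, 21 and 28 days (weeks 2, 3 and 4). In the intermittent arm 7 days of drug were followed by 7 days in the solvent DMSO (first withdrawal, week 2), then 7 days of drug again (rechallenge, week 3), then 7 days of DMSO again (second withdrawal, week 4). Column names of the count table and sample labels disagree for the rechallenge group, off drug by the former and on drug by the latter, and the labels were followed. DUSP6, a target gene of the ERK pathway downstream of BRAF, was 109 ± 7.75 CPM (TMM-scaled counts for each 1000000 counts of a library, mean ± SD) in that group, 103 ± 4.57 in continuous week 3 and 658 ± 18 after the first withdrawal. Each of the 10 groups had 3 libraries, except continuous week 4 with 2. The labels do not say that libraries came from separate cultures, so p-values measure the spread between these libraries, which may be technical. The promoter that drives the transgene and the number of clones are not given in the sources used here.

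Potassium channels let potassium leave the cell along its gradient, which sets the resting membrane potential and, through it, the driving force for calcium entry, cell volume and passage through the cell cycle. Inward rectifiers and two-pore channels conduct near the resting potential, calcium-activated channels open when calcium rises in the cell, and voltage-gated channels open on depolarization. Auxiliary subunits have no pore and change the gating or the surface level of the channels they join. Melanocytes, the pigment cells from which melanoma arises, are not excitable in the way of nerve or muscle, but express members of all these families.

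Library totals ran from 22934039 to 35804978 counts, and the members together took 0.0255 to 0.0673% of them. The mitochondrial share was 8.57 to 20.7%. BRAF stood at 40.2 ± 2.83 CPM in vector cells and 895 ± 7.17 in untreated cells (log2 change 4.48 ± 0.09, adjusted p = 1.26e-25, edgeR's quasi-likelihood test with Benjamini-Hochberg adjustment, used for all adjusted p below). It was 700 to 1080 CPM on average in the groups on drug, and 3230 ± 59.9 and 3400 ± 83.9 CPM after the withdrawals. The summed group means of 8 melanocyte lineage markers were 2460 CPM in untreated cells, 8450 at 20 h and 376 to 1020 in the later groups. SOX10 (129 to 964 CPM over group means) and S100B (99.4 to 287) were present in every group, while PMEL went down to 2.83 CPM, DCT to 2.13, MLANA to 4.87 and MITF to 11.4, each highest at 20 h and lowest at week 1 or later. Of the markers of other cell types, 8 of fibroblasts summed to 57 CPM in untreated cells, 314 at week 1, 777 after rechallenge and 2480 in continuous week 4. COL1A1 at 2180, LUM at 51.3, PDGFRB at 50.8, COL3A1 at 39.8, COL1A2 at 27.2 and DCN at 1.63 were all highest in continuous week 4. After the withdrawals the 8 summed to 61.6 and 58 CPM, though PDGFRA had its highest mean, 7.45 CPM, after the first. The 4 endothelial markers summed to 10.1 CPM in untreated cells, 0.57 to 1.39 in the groups on drug, 19 after the first withdrawal and 29 after the second, mostly KDR (up to 23.5), with PECAM1 up to 3.98, VWF up to 2 and CDH5 up to 0.0686. The 5 epithelial markers summed to 16.7 to 127 CPM, nearly all KRT18 (up to 109) and KRT8 (up to 21.3), with EPCAM, KRT19 and CDH1 each under 1. All 5 blood markers stayed under 1 CPM. The part of these markers in the results was not tested. Replicate 3 of continuous week 2 and replicate 1 of rechallenge differed most from the libraries of their own groups. In bulk RNA, a change in the number of cells that express a gene and a change in RNA per cell cannot be told apart.

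Counts were highest for a few members. Per kilobase of exon, which allows levels of different genes to be compared, KCNN4 was the highest member in vector (24.6 ± 3.05 CPM per kb, mean ± SD) and untreated cells (26.3 ± 2.11), and again after the first (76.6 ± 8.63) and second withdrawal (48.4 ± 3.2). KCNE4 was highest at week 1 (34.4 ± 0.958 CPM per kb), in continuous weeks 2 to 4 and after rechallenge (33.9 ± 2.89). At 20 h the highest was KCNJ13 (27.8 ± 0.83 CPM per kb), with KCNE4 next (20.3 ± 0.509). In each group the libraries of the first and of the second member in this order did not overlap. Below them, KCNG1 came next in 8 of the 10 groups, KCND1 at 20 h and KCNK3 after the second withdrawal, where the libraries of KCNK3 (16.9 ± 3.34 CPM per kb) overlapped those of KCNE4 (18.9 ± 1.21). The number of members with a group mean of at least 1 CPM was 22 in vector cells, 24 in untreated cells, 22 at 20 h, 24 to 27 in the later groups on drug and 30 after each withdrawal. Of the 54 members, 10 had their highest group mean after the first withdrawal, 10 after the second, 7 in continuous week 4 and 6 at 20 h. Over all genes, counts at 1 CPM and by highest group were not taken, so neither is read as a trait of the members.

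**Figure D1:**
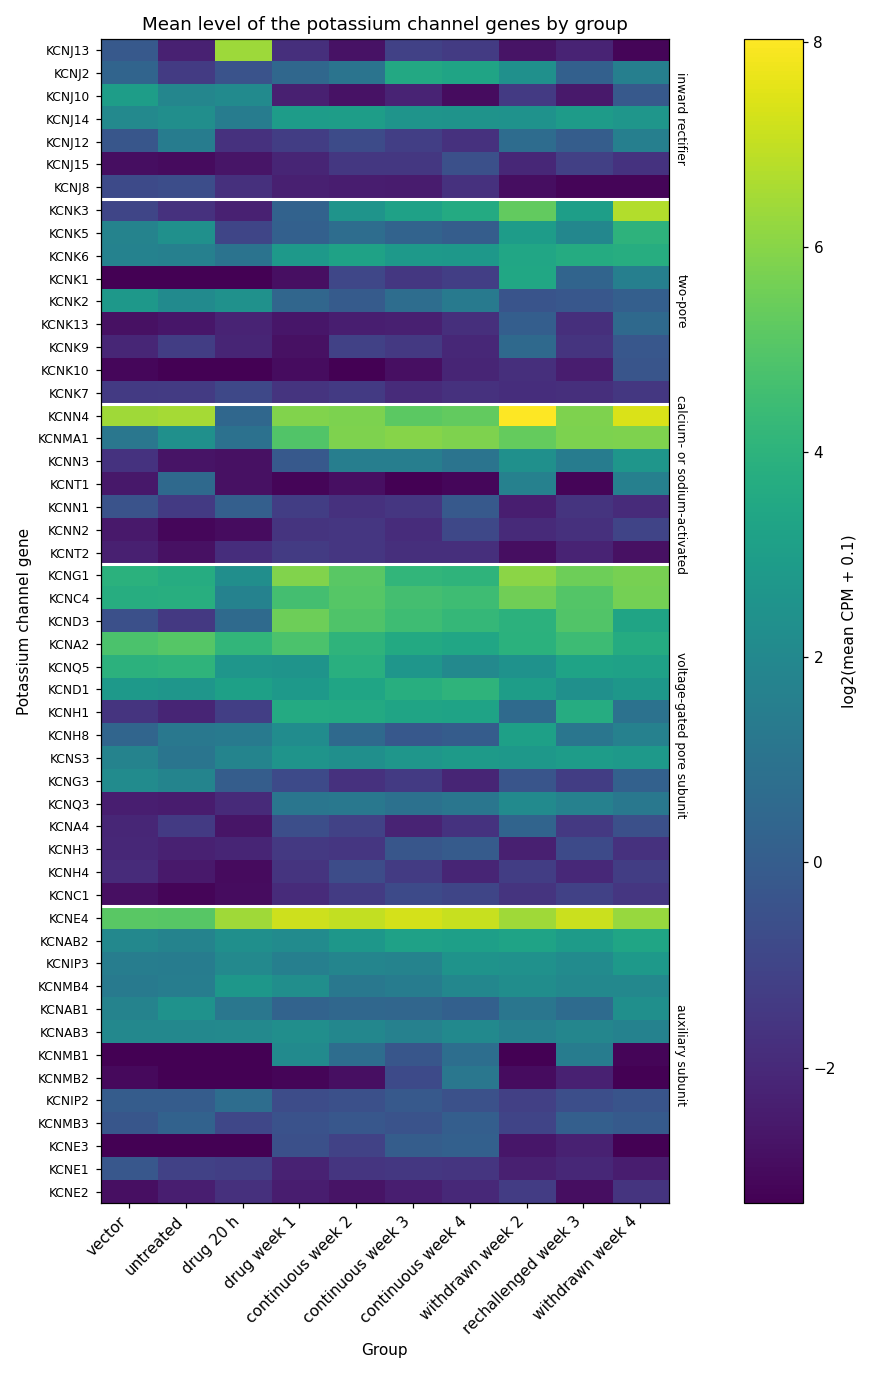
Heat map of the mean level of 51 of the potassium channel genes (rows, by class and then by highest level) in the 10 groups (columns), as log2(mean CPM + 0.1), over 3 libraries a group and 2 for continuous week 4. KCNJ13 is bright at 20 h alone, KCNN4 is dark at 20 h, and KCNK3 and KCNK1 are brightest after the withdrawals.

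Overexpression of BRAF-V600E itself moved fewer genes than 20 h of drug did, among the members as over the whole table. From vector to untreated cells, 6 of the 53 tested members rose and 6 fell (11.3% each), beside 7.04% and 9.92% of all 20494 tested genes. The threshold for every call here is an adjusted p under 0.05. KCNT2 was left out of testing by its low counts. The risers were KCNT1, KCNJ12, KCNMA1, KCNH8, KCNAB1 and KCNK5, and those that fell were KCNJ2, KCNJ10, KCNJ13, KCNN3, KCNK2 and KCNS3. Of these, 5 did not pass the threshold in every fit without 1 library: KCNK5 (adjusted p up to 0.145, without untreated replicate 1), KCNH8 (0.0529, without untreated replicate 3), KCNN3 (0.165, without untreated replicate 2), KCNK2 (0.105, without untreated replicate 3) and KCNS3 (0.089, without untreated replicate 3).

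Drug moved the members in different ways at 20 h and at week 1. At 20 h, 12 members rose and 15 fell against untreated cells, beside 28.4% and 25.2% of all genes. The falls included KCNN4, KCNA2, KCNQ5, KCNC4 and KCNG1, each above 10 CPM in untreated cells, and KCNE4, the other member above 10 CPM there, rose. At week 1, 22 members were above untreated cells and 13 below, beside 27.5% and 26.7% of all genes. The median log2 change over the 53 members was 0.81 at week 1 and 0.04 at 20 h, and 0.00 and 0.06 over all genes. Between 20 h and week 1, 23 rose and 11 fell (all genes 28.6% and 29.1%), and the falls numbered 7 without week 1 replicate 1. With longer drug, from week 1 to continuous week 4, 13 rose and 9 fell (all genes 21.1% and 19.9%), the falls numbering 5 without continuous week 4 replicate 2.

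After withdrawal more members were higher than lower in each of the 5 comparisons made. At the first withdrawal 22 members rose and 10 fell from week 1 (all genes 27.7% and 26.8%). Against continuous week 2, 25 were higher and 10 lower (all genes 27.3% and 27.9%). Against untreated cells, equally without drug at harvest, 31 were higher and 11 lower (all genes 31.2% and 28.8%), with a median log2 change of 1.54 over the members and 0.02 over all genes. With members at 0 counts in a group set to the bound that 3 counts over the group allow, that median was 1.34, and the median from untreated cells to week 1 was 0.32. Rechallenge reversed the balance, with 12 members rising and 20 falling from the first withdrawal (all genes 27.8% and 28.5%). Against continuous week 3, 14 rechallenged members were higher and 6 lower (all genes 14.0% and 14.3%). The second withdrawal raised 21 and lowered 8 from rechallenge (all genes 23.1% and 22.3%), and against continuous week 4 20 were higher and 14 lower (all genes 26.1% and 25.1%).

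**Figure D2:**
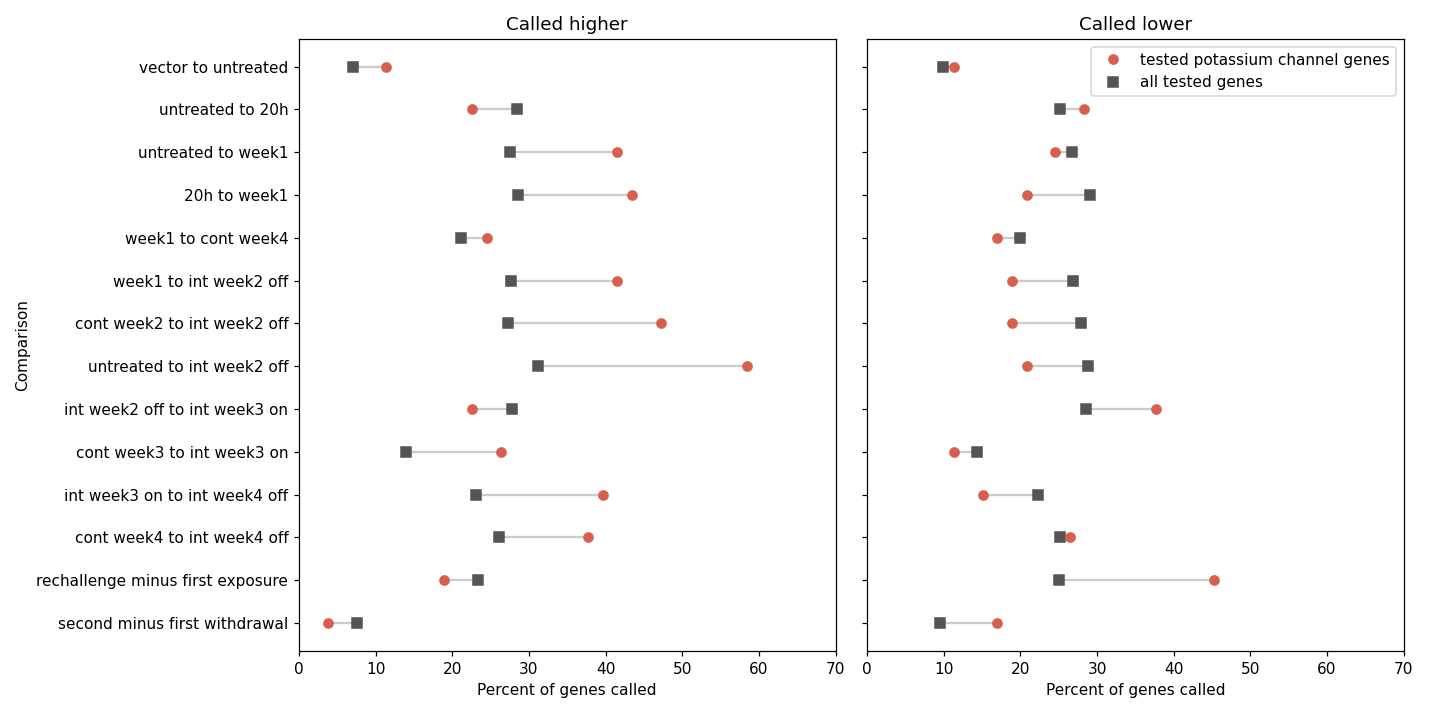
Percent of the 53 tested potassium channel genes (circles) and of all 20494 tested genes (squares) called higher (left) or lower (right) in each of the 14 comparisons, named first group to second group, at an adjusted p under 0.05. From untreated cells to the first withdrawal (untreated to int week2 off) 58.5% of the channel genes were higher, beside 31.2% of all genes.

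Among the inward rectifiers, KCNJ13 was abundant in 1 group alone. It encodes a rectifier of the retinal pigment epithelium, another pigmented cell layer, and lies at ENSG00000115474, chr2:232766464-232776568, minus strand (GRCh38, GENCODE 29). Its libraries held 83.4, 84.8 and 80 CPM at 20 h, 0.2, 0 and 0.114 in untreated cells and 0.0771, 0.202 and 0.296 at week 1. The 20 h libraries stood far above all the others, since no library of another group exceeded 1.0 CPM. The log2 change was 9.67 ± 0.31, adjusted p = 1.08e-21 from untreated cells to 20 h and -8.68 ± 0.28, adjusted p = 6.58e-22 from 20 h to week 1. At week 1 and untreated the libraries were both near the floor and the difference did not pass the threshold (adjusted p = 0.256). Exons of GIGYF2 on the opposite strand overlap 24.3% of the KCNJ13 exons, and no source used here says whether reads were counted by strand. GIGYF2 itself was 149 ± 6.03 CPM in untreated cells, 191 ± 10.1 at 20 h and 118 ± 2.57 at week 1, and its part in the KCNJ13 counts was not tested.

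Sequences upstream of the start are shown for KCNJ13, present at 20 h, for KCNK3 and KCNT1, which rose at both withdrawals, and for KCNH1, which fell at both (values below). They are the bases before the RefSeq gene start (GRCh38.p14) that lie outside the GENCODE gene, 5′ to 3′ on the strand of the gene, in lower case, with motif matches in capitals. KCNJ13 has 247 bases at chr2:232776569-232776815 on the minus strand, KCNK3 has 218 at chr2:26692472-26692689 on the plus strand, KCNT1 has 250 at chr9:135701935-135702184 on the plus strand and KCNH1 has 218 at chr1:211134181-211134398 on the minus strand.
KCNJ13: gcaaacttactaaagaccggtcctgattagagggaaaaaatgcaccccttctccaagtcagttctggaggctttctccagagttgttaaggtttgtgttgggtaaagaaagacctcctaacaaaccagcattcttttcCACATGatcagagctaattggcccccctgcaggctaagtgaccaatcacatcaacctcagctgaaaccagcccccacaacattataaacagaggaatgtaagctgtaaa
KCNK3: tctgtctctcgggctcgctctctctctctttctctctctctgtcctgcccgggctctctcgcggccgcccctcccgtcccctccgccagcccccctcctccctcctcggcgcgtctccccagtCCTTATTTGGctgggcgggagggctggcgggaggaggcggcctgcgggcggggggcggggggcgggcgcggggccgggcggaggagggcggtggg
KCNT1: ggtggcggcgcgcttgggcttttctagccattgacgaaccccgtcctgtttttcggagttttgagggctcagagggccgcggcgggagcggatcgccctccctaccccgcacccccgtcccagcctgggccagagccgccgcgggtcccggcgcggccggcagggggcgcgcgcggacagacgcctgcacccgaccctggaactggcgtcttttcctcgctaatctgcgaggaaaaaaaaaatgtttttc
KCNH1: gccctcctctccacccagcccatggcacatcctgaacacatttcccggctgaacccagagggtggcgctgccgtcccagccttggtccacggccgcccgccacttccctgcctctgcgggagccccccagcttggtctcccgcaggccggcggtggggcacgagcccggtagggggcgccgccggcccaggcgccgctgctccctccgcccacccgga
The capitals in KCNJ13 mark CACATG, the reverse complement of CATGTG, an E-box form bound by MITF and related factors, 112 bases before the start. It was searched on both strands of the 250-base windows and was in 9.54% of 27305 RefSeq windows and in 5 of the 43 members with a window (KCNE1, KCNE2, KCNJ13, KCNJ15 and KCNK2). MITF RNA was 349 ± 10.7 CPM in untreated cells, 723 ± 50.8 at 20 h and 11.4 ± 0.234 at week 1. The capitals in KCNK3 mark a CArG box, the element bound by serum response factor, 127 bases before the start, which was in 1.14% of all windows and in no other of the 43 members. The palindromic E-box CACGTG was in 6.49% of all windows and in KCNH4 and KCNN4 among members. TGANTCA, the AP-1 element, was in 6.6% of all windows and in KCNJ15 among members, and CGGAAG, an ETS core, in 16.8% and in 6 members. Each motif was searched on both strands, a match describes letters alone, and a window without one says only that these letters are not in it.

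KCNJ2, the rectifier that sets the resting potential of muscle, was high late in continuous drug. Its libraries held 13.4, 10.2 and 11.2 CPM in continuous week 3 and 9.73 and 10.1 in continuous week 4, beside 1.19, 1.13 and 1.55 at week 1. Rechallenged cells, harvested in the same week as continuous week 3, held 1.12, 0.945 and 0.985, with no overlap (log2 change -3.51 ± 0.18, adjusted p = 2.08e-15). KCNJ2 rose from week 1 to continuous week 4 (2.94 ± 0.19, adjusted p = 9.09e-14) and also at the first withdrawal, to 5.03, 4.83 and 5.36 CPM (1.98 ± 0.18, adjusted p = 1.57e-10). Its level after the second withdrawal, 3.07, 2.79 and 2.7 CPM, lay above rechallenge (1.49 ± 0.20, adjusted p = 2.19e-07) and below continuous week 4 (-1.80 ± 0.17, adjusted p = 4.16e-10). In untreated cells it was lower than in vector cells, 0.32, 0.162 and 0.379 against 1.06, 1.13 and 1.26 CPM (-2.01 ± 0.29, adjusted p = 5.47e-06).

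KCNJ10, the rectifier of glial cells and of melanocyte-derived cells of the inner ear, was near 0 on prolonged drug. Libraries held 8.39, 7.53 and 7.91 CPM in vector cells, 3.4, 3.66 and 3.71 in untreated cells and 3.93, 4.09 and 4.59 at 20 h. By week 1 they held 0.0771, 0.115 and 0.0987 CPM, below every library of the 3 earlier groups (from untreated cells -5.12 ± 0.35, adjusted p = 8.97e-14; from 20 h -5.35 ± 0.35, adjusted p = 2.35e-14). No later group mean on drug exceeded 0.116 CPM. It came back in part at the first withdrawal (0.335, 0.25 and 0.244 CPM, log2 change 1.43 ± 0.53, adjusted p = 0.0219) and more at the second (0.784, 0.713 and 0.934 CPM, 3.39 ± 0.44, adjusted p = 1.49e-07), still below untreated cells at the first (-3.69 ± 0.30, adjusted p = 5.19e-12). The rise at the first withdrawal did not pass the threshold without any 1 of 3 of the 6 libraries (adjusted p of 0.0661 without week 1 replicate 1, 0.0505 without week 1 replicate 3 and 0.0704 without first withdrawal replicate 1).

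KCNJ12, a close relative of KCNJ2, was low at 20 h and week 1 and rose at both withdrawals. It was 0.704, 0.636 and 0.837 CPM in vector cells and 2, 2.82 and 3.1 in untreated cells, without overlap (1.87 ± 0.38, adjusted p = 0.000559). It fell to 0.335, 0.172 and 0.119 CPM at 20 h (-3.65 ± 0.48, adjusted p = 1.26e-07) and stood at 0.424, 0.26 and 0.263 at week 1 (-3.08 ± 0.43, adjusted p = 3.25e-07 from untreated cells). It rose to 1.05, 1.25 and 2.26 CPM at the first withdrawal (2.29 ± 0.45, adjusted p = 6.59e-05) and to 2.35, 3.22 and 3.17 at the second (1.65 ± 0.36, adjusted p = 0.000323). Between them rechallenged libraries held 0.868, 1.4 and 0.492 CPM, a difference from the first withdrawal that did not pass the threshold (-0.72 ± 0.38, adjusted p = 0.104) but did without rechallenge replicate 2 (-1.17, adjusted p = 0.0216). Reads of KCNJ12 cannot be told from those of KCNJ18, a near-identical copy that was given 2 counts in the table, so its counts are uncertain. Of the other inward rectifiers, KCNJ14 kept group means of 2.63 to 7.83 CPM, lowest at 20 h, and part of its exons is shared with GRWD1. KCNJ15 and KCNJ8, the latter a pore of ATP-sensitive channels, had no group mean above 0.591 CPM.

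Two-pore channels carry background potassium current, and 5 of the 9 rose at both withdrawals, beside 3720 of all 20494 tested genes. Of these 5, KCNK1 and KCNK9 had 4 counts each at week 1 and KCNK13 had 6, so the sizes of their first rises are uncertain. KCNK13 was also a member only through its counts after the withdrawals. KCNK3, an acid-sensitive background channel (ENSG00000171303, chr2:26692690-26733420, plus strand), held 0.2, 0.259 and 0.151 CPM in untreated cells and 1.19, 1.01 and 1.05 at week 1. After the first withdrawal it held 39.4, 42.7 and 35.9 CPM and after the second 109, 123 and 82.4. Every library after a withdrawal was above every library of the other groups, whose highest was 12.9 CPM in continuous week 4. The log2 changes were 5.18 ± 0.25, adjusted p = 1.56e-17 at the first withdrawal and 3.68 ± 0.19, adjusted p = 2.86e-16 at the second, and rechallenge lowered it between them to 10.6, 6.46 and 7.42 CPM (-2.27 ± 0.19, adjusted p = 1.09e-11). It also rose under continuous drug, to 11.1 and 12.9 CPM at week 4 (from week 1 3.47 ± 0.27, adjusted p = 6.91e-12). Against untreated cells the first withdrawal stood at 7.54 ± 0.32, adjusted p = 9.15e-19.

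KCNK1, a weakly rectifying member (ENSG00000135750, chr1:233614004-233672512, plus strand), had no count in any vector, untreated or 20 h library. A total of 4 counts was found at week 1, and the libraries of the first withdrawal held 12.4, 10.4 and 8.88 CPM. The first withdrawal was thus at least 287-fold above untreated cells, taking 3 counts over the untreated group as the floor (adjusted p = 3.14e-15), and the log2 change from week 1 was 7.78 ± 0.38, adjusted p = 6.01e-15. Rechallenge lowered it to 1.4, 1.25 and 0.821 CPM (-3.18 ± 0.24, adjusted p = 2.4e-11), which was still above continuous week 3 at 0.35, 0.197 and 0.233 (2.18 ± 0.34, adjusted p = 1.76e-05). After the second withdrawal it held 2.66, 3.53 and 2.5 CPM (1.32 ± 0.24, adjusted p = 7.71e-05), and no library of that group reached those of the first withdrawal.

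KCNK5, a channel opened by alkaline medium, fell at 20 h and was highest after the second withdrawal. Libraries held 5.76, 4.73 and 4.54 CPM in untreated cells and 0.418, 0.646 and 0.198 at 20 h (-3.58 ± 0.28, adjusted p = 2.85e-12). After 7 days of drug they held 1, 1.18 and 0.888 CPM, after the first withdrawal 6.66, 6.86 and 9.02 (2.86 ± 0.22, adjusted p = 2.78e-12), and after rechallenge 2.91, 4.03 and 4.07. The rechallenged libraries were above continuous week 3 (1.09, 1.1 and 1.19 CPM, 1.69 ± 0.23, adjusted p = 6.88e-07). After the second withdrawal KCNK5 held 17.9, 18.3 and 12.3 CPM, the highest libraries of any group (2.14 ± 0.19, adjusted p = 4.24e-11 from rechallenge, 4.13 ± 0.26, adjusted p = 2.51e-14 against continuous week 4).

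KCNK6, a lysosomal two-pore channel in some cells, climbed from 2.96, 3.14 and 2.88 CPM in untreated cells to 6.55, 7.56 and 6.94 at week 1 (1.23 ± 0.12, adjusted p = 1.38e-10). Between these, at 20 h, it was below untreated cells, at 1.76, 1.85 and 2.06 CPM. It held 11.8, 9.72 and 9.61 CPM after the first withdrawal (0.56 ± 0.10, adjusted p = 3.31e-05) and 12.9, 14 and 12.9 after the second. On drug it held 8.4, 8.9 and 9.91 CPM in continuous week 2 and 13.2, 12.3 and 12.2 after rechallenge. KCNK6 was not called between continuous week 2 and the first withdrawal, nor between rechallenge and the second. The second withdrawal was above continuous week 4, at 6.07 and 6.97 CPM. KCNK2, a channel gated by stretch and lipids, fell by week 1, from 4.52, 4.41 and 3.86 CPM in untreated cells and 5.48, 5.56 and 4.94 at 20 h to 1.04, 1.27 and 1.41 at week 1 (-1.77 ± 0.21, adjusted p = 2.3e-08). Its libraries after the first withdrawal, 0.754, 0.644 and 0.592 CPM, were below those of untreated cells too (-2.68 ± 0.24, adjusted p = 3.66e-11).

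KCNK13 held 0.671, 1.29 and 0.871 CPM after the first withdrawal and 1.19, 1.7 and 1.27 after the second, with no other group mean above 0.192 CPM (3.77 ± 0.69, adjusted p = 2.64e-05 and 2.86 ± 0.56, adjusted p = 9.86e-05 at the withdrawals). Of the 277 counts of KCNK13, 77 came after the first withdrawal and 128 after the second. Without these groups it would miss the minimum for a member. KCNK9, close kin of KCNK3, had its highest group means, 1.35 and 0.744 CPM, after the same withdrawals. KCNK10 had no group mean above 0.695 CPM and KCNK7 none above 0.456.

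**Figure D3:**
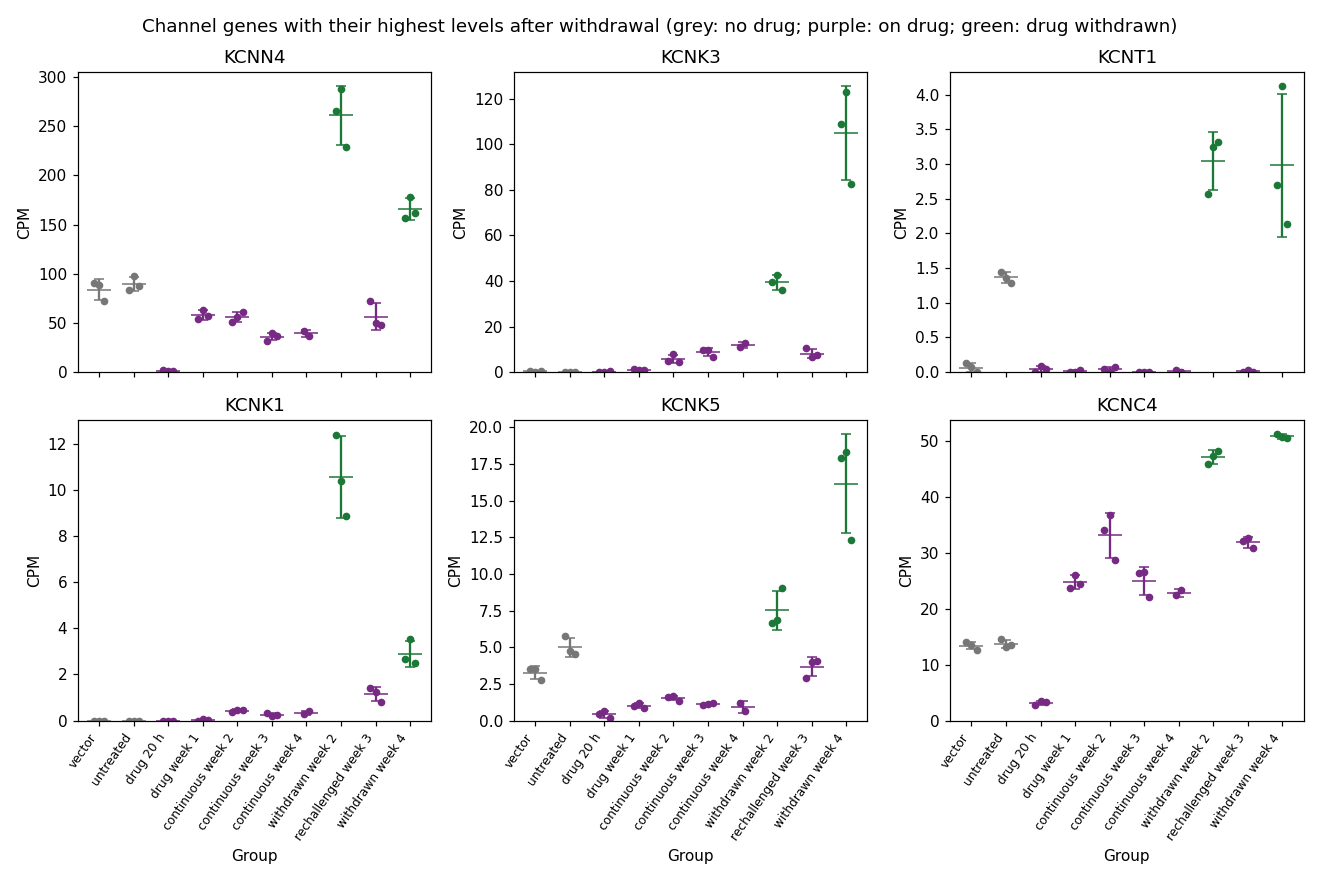
CPM in every library (points, vertical axes from 0) of KCNN4, KCNK3, KCNT1, KCNK1, KCNK5 and KCNC4 by group, with the mean (bar) and SD (error bar), n = 3 a group and 2 for continuous week 4. The withdrawn groups (green) hold the highest mean for each gene, and KCNN4 averages 261 CPM after the first withdrawal against 1.28 at 20 h.

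Among the calcium-activated channels, KCNN4 nearly vanished at 20 h and was highest off drug. It encodes the intermediate-conductance channel (ENSG00000104783, chr19:43766533-43781261, minus strand) that holds the membrane potential negative while calcium enters, as known from red cells and lymphocytes. Libraries held 83.7, 97.6 and 87.6 CPM in untreated cells and 2.26, 0.948 and 0.633 at 20 h, a log2 change of -6.13 ± 0.22, adjusted p = 2.12e-20. By week 1 it was back at 54.1, 63.6 and 56.7 CPM (5.51 ± 0.22, adjusted p = 2.02e-19 from 20 h), still below all untreated libraries (-0.63 ± 0.15, adjusted p = 0.000644). Withdrawal raised it to 266, 288 and 229 CPM (2.17 ± 0.15, adjusted p = 2.26e-13), above every untreated library as well (1.54 ± 0.15, adjusted p = 2.17e-10). Rechallenge brought it to 71.9, 49.6 and 48.1 CPM (-2.21 ± 0.15, adjusted p = 1.57e-13) and the second withdrawal to 157, 178 and 162 (1.55 ± 0.15, adjusted p = 4.24e-10). Vector and untreated libraries overlapped, at 91.1, 88.8 and 72 CPM in vector cells, and the difference did not pass the threshold (adjusted p = 0.754). DUSP6 was 421 ± 4.38 CPM in untreated cells, 11 ± 0.936 at 20 h, 63.9 ± 2.74 at week 1, 658 ± 18 after the first withdrawal and 613 ± 13.9 after the second, and its part in the KCNN4 values was not tested.

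KCNMA1, the pore of the large-conductance calcium- and voltage-activated channel, fell at 20 h, was above untreated cells at week 1 and stayed above the week 1 libraries when drug was removed. It was 1.89, 2.51 and 2.18 CPM in vector cells, 5.2, 4.51 and 5.41 in untreated cells (1.20 ± 0.14, adjusted p = 2.01e-07) and 1.67, 1.72 and 2.02 at 20 h (-1.47 ± 0.15, adjusted p = 1.43e-09). At week 1 it held 30.5, 30 and 32.5 CPM (2.63 ± 0.11, adjusted p = 9.05e-19 from untreated cells) and in continuous week 4 54.9 and 59 (0.88 ± 0.10, adjusted p = 3.63e-08). After the withdrawals it held 36, 40 and 45.9 and 57.4, 55.8 and 60.1 CPM, all above the week 1 libraries. The second withdrawal gave a log2 change of 0.06 ± 0.09 (adjusted p = 0.657), which did not pass the threshold.

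KCNT1, a sodium-activated channel (ENSG00000107147, chr9:135702185-135795508, plus strand), was above 1 CPM in the 3 groups that overexpressed BRAF-V600E without drug at harvest, and in no library of another group. Libraries held 0.128, 0.0707 and 0 CPM in vector cells and 1.44, 1.36 and 1.29 in untreated cells (4.17 ± 0.53, adjusted p = 8.19e-07). On drug no library exceeded 0.0862 CPM, with 3 counts in all at 20 h and 1 at week 1. After the first withdrawal it held 2.56, 3.25 and 3.31 CPM and after the second 2.69, 4.12 and 2.13. The ratio of the first withdrawal to week 1 was 279 (49.6 to 11100), with a 95% interval that covers counting error only, as do all such intervals here (adjusted p = 2.61e-11). The ratio of untreated cells to week 1 was 124 (21.8 to 4940), that of untreated cells to 20 h 32.9 (11 to 162), and that of the second withdrawal to rechallenge 288 (51.2 to 11400) (adjusted p = 4.29e-09, 6.9e-08 and 2.75e-11). The first withdrawal stood above untreated cells (1.16 ± 0.32, adjusted p = 0.0029), with no overlap.

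KCNN3, a small-conductance calcium-activated channel, was higher at week 1 than in untreated cells, rose at both withdrawals and fell on rechallenge. It was 0.08, 0 and 0.0757 CPM in untreated cells, 0.886, 0.606 and 0.888 at week 1, 5.7, 4.76 and 4.91 after the first withdrawal (2.70 ± 0.24, adjusted p = 7.34e-11), 2.54, 2.99 and 2.23 after rechallenge (-0.98 ± 0.21, adjusted p = 0.000197) and 5.08, 6.66 and 6.44 after the second (1.23 ± 0.21, adjusted p = 1.13e-05). Against untreated cells the first withdrawal stood at 6.59 ± 0.39, adjusted p = 3.39e-15. KCNN1 had its highest mean at 20 h, 0.991 CPM, and KCNN2 had no group mean above 0.459. KCNT2 was at or below 0.296 CPM in each group.

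Of the 18 voltage-gated pore subunits, KCND3, KCNH1 and KCNA2 fell at both withdrawals from the drug group before each. Against continuous drug of the same week, KCND3 and KCNH1 were lower at both, and KCNA2 was not called lower at either. Over the whole table, 3421 of the 20494 tested genes fell at both withdrawals. The falls are therefore described gene by gene and not as a trait of the class. KCND3, a fast inactivating channel of heart and neurons (ENSG00000171385, chr1:111770662-111989155, minus strand), held 0.4, 0.13 and 0.265 CPM in untreated cells, 1.38, 1.29 and 1.54 at 20 h and 46.7, 45.2 and 44.5 at week 1. Already at 20 h no library overlapped untreated cells (2.44 ± 0.36, adjusted p = 9.25e-07), and the change from untreated cells to week 1 was 7.45 ± 0.23, adjusted p = 2.26e-22. It decreased under continuous drug to 18.6 and 19 CPM at week 4 (-1.27 ± 0.15, adjusted p = 3.16e-08). At the first withdrawal it fell to 16.1, 15 and 16.3 CPM (-1.52 ± 0.13, adjusted p = 3.34e-11), which was still far above untreated cells (5.92 ± 0.24, adjusted p = 4.14e-19), rechallenge raised it to 24.8, 35 and 33.5 (0.98 ± 0.13, adjusted p = 2.44e-07) and the second withdrawal lowered it to 9.98, 8.28 and 11.3 (-1.66 ± 0.14, adjusted p = 1.35e-11).

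KCNH1, the ether-a-go-go channel found in many tumours (ENSG00000143473, chr1:210676823-211134180, minus strand), marked the groups with 7 or more days of unbroken or renewed drug. Libraries held 0.12, 0.227 and 0.0379 CPM in untreated cells and 12.8, 12.4 and 11.5 at week 1 (6.47 ± 0.28, adjusted p = 1.37e-18). At the first withdrawal they held 1.17, 1.61 and 1.53 CPM (-3.07 ± 0.19, adjusted p = 1.19e-14), after rechallenge 11.7, 14.3 and 12.9 (3.16 ± 0.19, adjusted p = 6.05e-15) and after the second withdrawal 1.98, 1.83 and 1.7 (-2.82 ± 0.18, adjusted p = 3.58e-14). No library of these off-drug groups reached any on-drug library from week 1 on. Replicate 3 of continuous week 2, which stood apart, was the lowest of those on-drug libraries, the group holding 13.7, 13.5 and 8.08 CPM. A gene model on the opposite strand, AC096636.1, overlaps 36.9% of the KCNH1 exons, with 113 counts in all against 5171 for KCNH1.

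KCNA2, a delayed rectifier, fell at 20 h from 36.3, 28.7 and 32.1 to 17.1, 18.8 and 17.8 CPM (-0.85 ± 0.19, adjusted p = 0.000359), was 27.7, 28.2 and 27.4 at week 1, and decreased to 11.7 and 8.94 in continuous week 4 (-1.43 ± 0.22, adjusted p = 5.01e-06). Its libraries ran from 11.8 to 19.6 CPM after the first withdrawal and from 11.3 to 20.2 in continuous week 2. They ran from 16.3 to 28.3 CPM after rechallenge and from 9.98 to 15.4 after the second withdrawal. The low levels of KCNA2 off drug were thus shared by continuous drug of the same week. KCNG1, a subunit that has no current of its own and modifies other channels, fell from 12.3, 14.8 and 12.1 CPM in untreated cells to 4.98, 4.05 and 5.5 at 20 h (-1.43 ± 0.13, adjusted p = 1.59e-10). At week 1 it held 57.7, 61.7 and 55.3 CPM (2.15 ± 0.11, adjusted p = 2.25e-16 from untreated cells), above all untreated libraries.

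Under continuous drug KCNG1 decreased to 17 and 16.6 CPM at week 4 (-1.79 ± 0.13, adjusted p = 1.14e-12). The withdrawals, at 66.3, 74.4 and 58.3 and 49.5, 52 and 52 CPM, did not pass the threshold against the drug group before each (adjusted p = 0.137 and 0.177). Both were past it without the 4 libraries that differed most from their groups (adjusted p = 0.0115 and 0.0191), and the second without rechallenge replicate 1 (adjusted p = 0.0471).

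KCNC4, a fast channel of the Shaw type, fell at 20 h and rose at both withdrawals. It held 14.6, 13.2 and 13.5 CPM in untreated cells and 2.76, 3.45 and 3.28 at 20 h (-2.12 ± 0.11, adjusted p = 8.87e-17). At week 1 it held 23.7, 26.1 and 24.5 CPM, and after the withdrawals 45.9, 47.3 and 48.3 (0.93 ± 0.08, adjusted p = 5.54e-11) and 51.3, 50.8 and 50.5 (0.67 ± 0.08, adjusted p = 3.85e-08), above every other library.

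KCNQ5, a channel of the M-current, was lower at week 1 than in untreated cells and rose on rechallenge. It held 17, 15.3 and 17.9 CPM in untreated cells, 5.9, 6.12 and 6.25 at 20 h (-1.46 ± 0.14, adjusted p = 2.09e-10) and 6.01, 6 and 5.17 at week 1 (-1.54 ± 0.14, adjusted p = 3.71e-11). Continuous week 2 held 16.2, 14.3 and 12 CPM against 4.32, 5.36 and 6.58 after the first withdrawal (-1.38 ± 0.14, adjusted p = 8.24e-10), and rechallenge raised it to 8.77, 9.18 and 10.6 (0.80 ± 0.14, adjusted p = 1.45e-05). KCND1, a relative of KCND3, was highest in continuous week 4, with 16.2 and 17.1 CPM against 6.98, 6.72 and 6.81 at week 1 (1.29 ± 0.12, adjusted p = 2.81e-10). Rechallenged cells held 4.84, 5.21 and 5.28 CPM against 14.5, 13.4 and 13.6 in continuous week 3 (-1.43 ± 0.11, adjusted p = 2.17e-11).

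KCNH8, another gene of the ether-a-go-go family, held 5.01, 3.64 and 4.71 CPM at week 1, fell to 0.77 and 1.02 in continuous week 4 (-2.31 ± 0.26, adjusted p = 1.59e-08) and was highest after the first withdrawal at 8.17, 6.97 and 10.4. KCNG3, a modifier like KCNG1, was lower after the first withdrawal (0.545, 0.572 and 0.94 CPM) than in untreated cells (3.88, 2.79 and 3.63, log2 change -2.30 ± 0.29, adjusted p = 4.98e-08). KCNQ3 was 0.0843 CPM in untreated cells, 2.1 at week 1 (4.55 ± 0.39, adjusted p = 2.16e-11) and highest after the first withdrawal at 4.21. KCNS3, a silent subunit, went from 2.02 CPM in untreated cells to 5.78 at week 1 (1.51 ± 0.18, adjusted p = 1.7e-08). Of the other voltage-gated members, KCNA4, KCNC1, KCNH3 and KCNH4 had no group mean above 1.18 CPM.

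**Figure D4:**
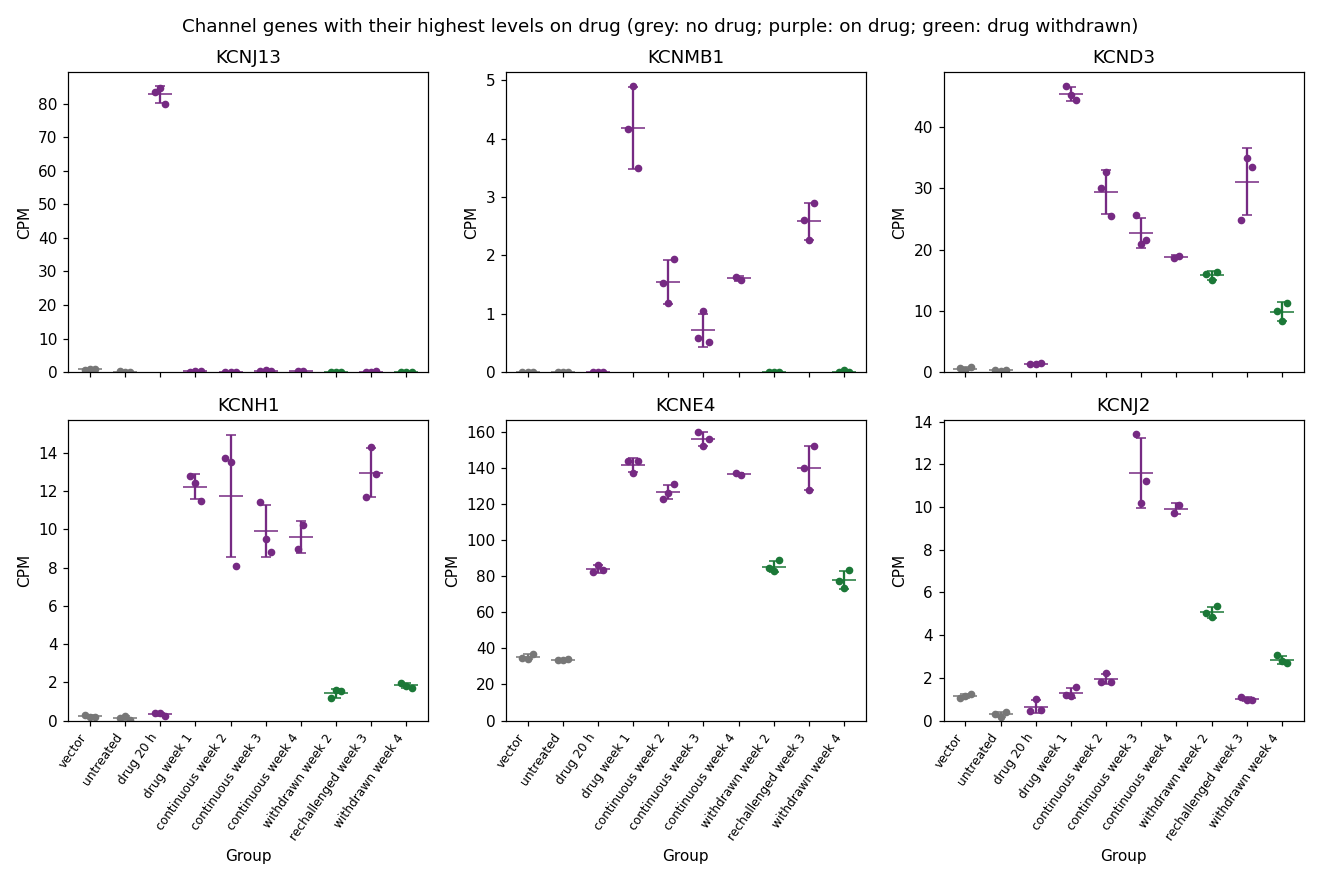
CPM in every library (points, vertical axes from 0) of KCNJ13, KCNMB1, KCND3, KCNH1, KCNE4 and KCNJ2 by group, with the mean (bar) and SD (error bar), n = 3 a group and 2 for continuous week 4. The groups on drug (purple) hold the highest mean for each gene, at 20 h for KCNJ13, at week 1 for KCNMB1 and KCND3 and in continuous week 3 for KCNE4 and KCNJ2.

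Of the auxiliary subunits, KCNE4 was the most abundant and followed the drug. It encodes a single-pass subunit that dampens several voltage-gated channels (ENSG00000152049, chr2:223051814-223198399, plus strand). Libraries held 34.9, 34.1 and 36.8 CPM in vector cells, 33.3, 33.6 and 33.9 in untreated cells and 82.1, 86.2 and 83.3 at 20 h (1.32 ± 0.07, adjusted p = 8.6e-17). At week 1 they held 144, 137 and 144 CPM (2.08 ± 0.07, adjusted p = 1.05e-21 from untreated cells). The withdrawals lowered it to 84.4, 82.6 and 88.7 CPM (-0.74 ± 0.06, adjusted p = 3.9e-11) and 77.1, 73.5 and 83.3 (-0.85 ± 0.06, adjusted p = 2.23e-12), with 140, 128 and 152 after rechallenge between them (0.72 ± 0.06, adjusted p = 6.24e-11). No off-drug library reached an on-drug library from week 1 on, and all libraries after a withdrawal were above those of vector and untreated cells.

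KCNMB1, the subunit that raises the calcium sensitivity of the KCNMA1 channel in smooth muscle (ENSG00000145936, chr5:170374671-170389677, minus strand), had no count in vector, untreated, 20 h or first withdrawal libraries. It held 4.16, 4.9 and 3.49 CPM at week 1, which was at least 116-fold above untreated cells and at least 113-fold above the first withdrawal (adjusted p = 6.25e-12 and 8.69e-12). Continuous week 3 held 0.584, 1.04 and 0.524 CPM and rechallenge 2.6, 2.26 and 2.89 (1.82 ± 0.28, adjusted p = 3.01e-05). Rechallenge was at least 69.1-fold above the first withdrawal (adjusted p = 9.76e-11), and 1 count was found after the second, a ratio of rechallenge to it of 236 (41.9 to 9350) (adjusted p = 1.23e-10). KCNMA1, its pore partner, was above week 1 after the first withdrawal (0.39 ± 0.10, adjusted p = 0.000852), below continuous week 2 (-0.48 ± 0.09, adjusted p = 6.38e-05), and rose on rechallenge (0.45 ± 0.09, adjusted p = 0.000151).

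KCNMB2, a subunit that inactivates the same channel, appeared late under continuous drug. Of its 199 counts, 135 were in continuous week 4, and without that group it would miss the minimum for a member. Libraries held 0.623, 0.479 and 0.378 CPM in continuous week 3 and 2.31 and 1.97 in continuous week 4, with 1 count in all at week 1 (ratio 195 (34.5 to 7770), adjusted p = 2.82e-07). The second withdrawal had none, and continuous week 4 was at least 65.5-fold above it (adjusted p = 8.05e-08). KCNE3, which keeps its partner channel open in gut epithelium, was at 0 counts in vector, untreated and 20 h cells and held 1.13, 0.874 and 0.786 CPM in continuous week 3 and 0.832 and 1.22 in continuous week 4. It was at least 15.7-fold above untreated cells at week 1 (adjusted p = 2.02e-06). Continuous week 4 was at least 31.1-fold above the second withdrawal, which had no count (adjusted p = 1.94e-07).

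KCNAB1 and KCNAB2, cytoplasmic beta subunits of Shaker channels, both rose at both withdrawals. KCNAB2 also rose on continuous drug, from 4.32 ± 0.322 CPM at week 1 to 8.33 ± 0.452 at week 4. It was higher after the first withdrawal than in continuous week 2. The second withdrawal did not pass the threshold against continuous week 4 for KCNAB2. KCNAB1 went from 5.44, 4.99 and 5.79 CPM in untreated cells to 1.19, 1.27 and 0.888 at week 1 (-2.27 ± 0.20, adjusted p = 5.37e-11) and back to 5.83, 4.28 and 4.7 after the second withdrawal (1.76 ± 0.20, adjusted p = 8.01e-09). KCNAB2 held 3.04, 3.57 and 3.1 CPM in untreated cells, 10.5, 9.55 and 8.32 after the first withdrawal (1.54 ± 0.14, adjusted p = 3.26e-11) and 10.5, 9.92 and 9.71 after the second. KCNMB4, the subunit of the large-conductance channel in neurons, was highest at 20 h, at 5.73, 7.5 and 6.01 CPM against 2.64, 2.46 and 3.03 in untreated cells (1.24 ± 0.16, adjusted p = 9.71e-08). KCNIP3, a calcium-binding subunit of Shal channels, had group means of 2.6 to 7 CPM and KCNAB3 of 3.01 to 4.84. KCNIP2, KCNMB3, KCNE1 and KCNE2 had no group mean above 1.56 CPM, and exons of KCNMB3 overlap PIK3CA.

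The withdrawals, which share no library, moved largely the same members in the same direction. Of the 22 members that rose at the first withdrawal and the 21 that rose at the second, 18 were shared, 81.8% of the first and 85.7% of the second (3720 genes over the whole table, 65.6% and 78.5%). Among them were KCNN4, KCNT1, KCNN3, KCNK1, KCNK3, KCNK5, KCNK9, KCNK13, KCNJ2, KCNJ10, KCNJ12, KCNC4, KCNH8, KCNAB1, KCNAB2, KCNIP3 and KCNE2. The rises of KCNE2 at the first (adjusted p up to 0.177, without first withdrawal replicate 1) and the second (0.0795, without second withdrawal replicate 2), of KCNH8 at the second (up to 0.143, without rechallenge replicate 3) and of KCNJ10 at the first (above) did not pass in each fit without 1 library, nor did KCNK9 at the second without the 4 libraries that differed most (0.0515). Of the 10 and 8 that fell, 6 were shared (60.0% and 75.0%, and 62.3% and 74.7% over all genes), namely KCNA2, KCND3, KCNH1, KCNE3, KCNE4 and KCNMB1. No member rose at 1 withdrawal and fell at the other, which was rare over the whole table too. There, 152 genes rose and then fell (2.68% of those that rose at the first). Another 126 fell and then rose (2.29% of those that fell at the first). By class, the two-pore and calcium- or sodium-activated genes (9 and 6 of the 53 tested members) made up 8 of the 18 shared rises and none of the shared falls. Summed marker lists also moved at the first and second withdrawal. Endothelial markers went from 0.949 to 19 CPM and from 1.39 to 29. Epithelial markers went from 41.1 to 114 CPM and from 61.5 to 127. Fibroblast markers went from 314 to 61.6 CPM and from 777 to 58. Melanocyte lineage markers went from 915 to 632 CPM and from 482 to 1020. The part of these markers was not tested.

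First exposure (untreated cells to week 1) and rechallenge (first withdrawal to week 3), which also share no library, moved the members less alike. Of the 22 members that rose on first exposure, 7 rose on rechallenge (31.8%, and 43.5% over all genes) and 9 fell (40.9%, and 23.9% over all genes). Those that rose at both were KCND3, KCNE4, KCNH1, KCNJ14, KCNK6, KCNMA1 and KCNMB1. Among those that rose and then fell were KCNAB2, KCNC4, KCNG1, KCNH8, KCNJ2, KCNK1, KCNK3 and KCNN3. The rise of KCNK1 at week 1 rests on 4 counts and did not pass by DESeq2 (adjusted p = 0.09), without the count filter (0.0865) or without week 1 replicate 2 (0.268), nor did that of KCNAB2 without week 1 replicate 1 (0.0803). Of the changes on rechallenge, those of KCNAB2 (adjusted p up to 0.113, without first withdrawal replicate 1), KCNK6 (up to 0.0695, without first withdrawal replicate 3) and KCNJ14 (up to 0.149, without first withdrawal replicate 3) did not pass in each fit without 1 library. Of the 13 that fell on first exposure, 7 fell again (53.8%, and 42.0% over all genes). These were KCNAB1, KCNG3, KCNJ10, KCNK5, KCNK9, KCNN4 and KCNT1. KCNQ5 alone fell and then rose (7.69%, and 24.4% over all genes). The second fall of KCNAB1 (adjusted p up to 0.177, without rechallenge replicate 1) and of KCNG3 (0.114, without first withdrawal replicate 3) did not pass without 1 library. The change on rechallenge differed from that on first exposure in 24 members in the lower direction and 10 in the higher (interaction, all genes 25.0% and 23.3%), and the second withdrawal from the first in 9 and 2 (all genes 9.50% and 7.60%). KCND3 showed the first kind, with a log2 change of 7.45 ± 0.23 on first exposure and 0.98 ± 0.13 on rechallenge, a difference of -6.47 ± 0.29, adjusted p = 6.42e-18. KCNQ3, which also differed (-4.99 ± 0.46, adjusted p = 1.51e-10), rose on first exposure and started the rechallenge from 4.21 CPM.

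**Figure D5:**
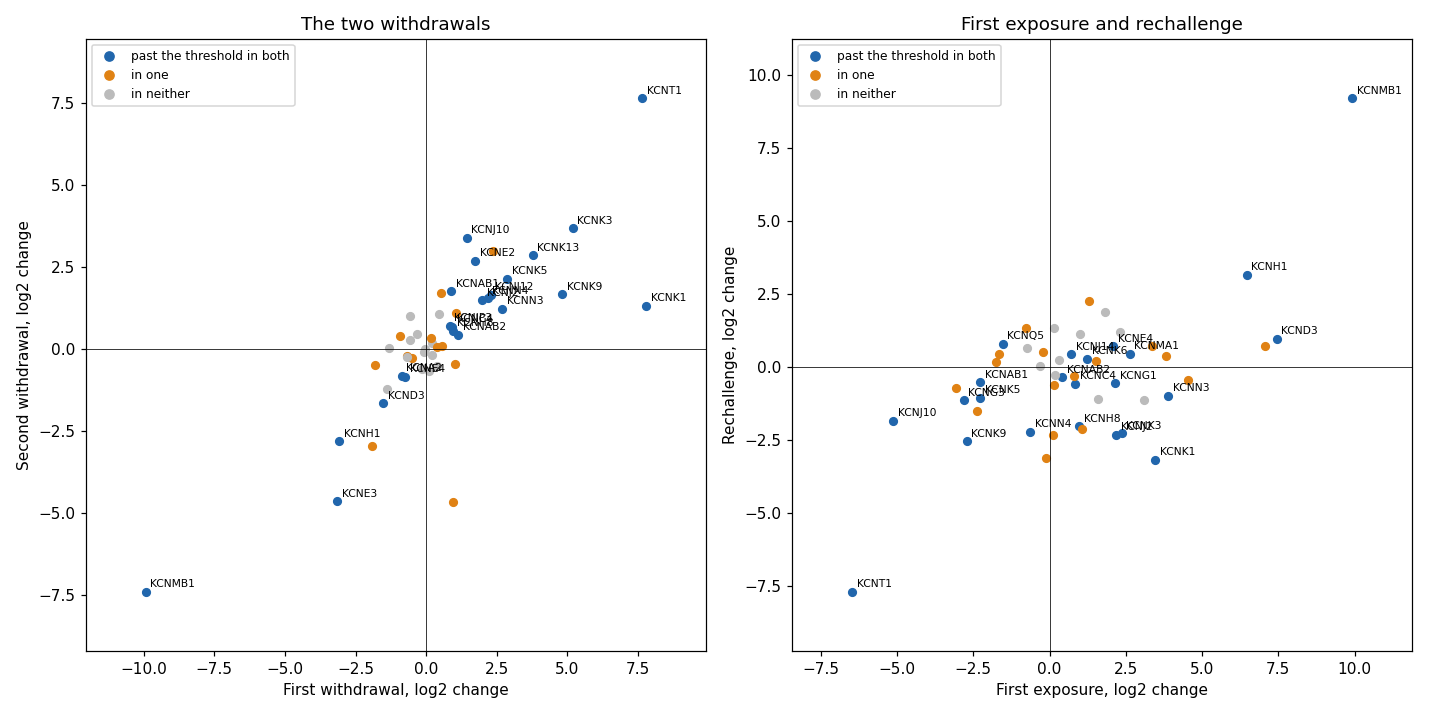
Log2 change of 50 of the 53 tested members at the first (horizontal) and second withdrawal (vertical), left, and on first exposure and rechallenge, right, with members past the threshold in both named. The 23 blue points on the left lie in the quadrants of equal sign, and on the right 9 of 23 lie in those of opposite sign. Over all genes, 2.68% of the rises at the first withdrawal fell at the second, and 2.29% of the falls rose. On rechallenge, 23.9% of all genes that rose on first exposure fell, and 24.4% of those that fell rose. Points of members at 0 counts in a group, such as KCNMB1, depend on the small count added before the log.

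Of 37 genes listed for their work beside potassium channels (sodium pump subunits, potassium-chloride cotransporters, partners of the pores), 27 were tested. At week 1, 12 (44.4%) were above untreated cells and 8 (29.6%) below, beside 27.5% and 26.7% of all genes. At the first withdrawal 16 (59.3%) rose and 5 (18.5%) fell, beside 27.7% and 26.8%. At the second 11 (40.7%) rose and 7 (25.9%) fell, beside 23.1% and 22.3%. ABCC9, the sulfonylurea receptor that joins KCNJ8 in ATP-sensitive channels, held 0.0771, 0.202 and 0.132 CPM at week 1 and 6.71, 6.51 and 7.03 after the first withdrawal (5.53 ± 0.38, adjusted p = 1.07e-13), while KCNJ8 held 0.116, 0.0866 and 0.0987 and 0, 0.107 and 0. FXYD3, a regulator of the sodium pump, held 384, 440 and 400 CPM in untreated cells and 20.7, 20.9 and 21 at week 1 (-4.29 ± 0.12, adjusted p = 4.83e-23), and rose to 127, 127 and 117 at the first withdrawal (2.57 ± 0.12, adjusted p = 5.11e-18). SLC12A7, a potassium-chloride cotransporter, went from 30.4, 30.7 and 33 CPM to 4.12, 4.24 and 3.69 at week 1 (-2.96 ± 0.13, adjusted p = 2.71e-18). HCN4, a pacemaker channel that also passes potassium, held 3.78, 4.48 and 4.69 CPM after rechallenge against 0.251, 0.25 and 0.94 after the first withdrawal (3.12 ± 0.34, adjusted p = 1.58e-08).

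The genes most like 3 members in pattern were found by Pearson's correlation over the 10 group means in log2 CPM, given as a description, since the groups share libraries, depth and treatment. The 3 members are those of widest range on that scale, with a prior count of 2 added, among members with a group mean of at least 5 CPM; KCNK1, at 0 counts in 3 groups, came below them with that count added. For KCNJ13 the nearest included ATG14 (r = 0.9863), TP53INP2 (0.986), GLMP (0.9801) and EPM2A (0.98), all highest at 20 h. Their range was far narrower than that of KCNJ13, since ATG14 had group means of 21 to 68.1 CPM. For KCNK3 they were KIAA1161 (r = 0.9784), PAX8 (0.976), GNG11 (0.976), DCBLD2 (0.9753) and PRKCB (0.9734), each highest after a withdrawal. For KCNN4 they were MRPL17 (r = 0.9801), PVR (0.9652), OSBPL10 (0.9646), TUBG1 (0.9602) and RRP12 (0.958). PAX8 spanned 0.343 to 130 CPM over the group means, and MRPL17 15.6 to 54.3. MKI67, a gene of dividing cells, was 254 ± 39 CPM in untreated cells, 28.9 ± 2.6 at 20 h, 122 ± 4.78 at week 1, 80.1 ± 23.2 after the first withdrawal and 217 ± 43.4 after rechallenge, and its part in these patterns was not tested.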

How the data were processed

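Polyadenylated RNA of 29 libraries in 10 groups was measured. The submitters' processing notes name the GRCh38 genome and the tools HISAT2 2.0.3, HTSeq 0.6.1, Trimmomatic 0.32 and SAMtools 0.1.18. The authors deposited unnormalized counts of reads for each gene, 1 column a library. Neither the gene annotation nor whether reads were counted by strand is given in the sources used here. For intermittent week 3, column names say that drug was off and sample labels that it was on; the labels were followed, with columns matched on week, arm and replicate.

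Members and gene lists were chosen with earlier results of these data known. Counts of all 29 libraries were fitted together in edgeR 4.0.16 (R 4.3.3) with TMM factors, filterByExpr and a quasi-likelihood test with 1 term a group. P-values were adjusted by Benjamini-Hochberg over the 20494 tested genes in each of 14 comparisons. The standard error of a log2 change was its size divided by the root of F. Positions, exon lengths and overlaps came from GENCODE 29, which held all 54 members, and upstream sequences from RefSeq, which held 43. The tests were checked on simulated data.

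Values in every library are given for members with a group mean of at least 10 CPM. They are also given for up to 3 rises and 3 falls by size in each comparison, among called members of at least 1 CPM in a compared group whose libraries do not overlap. Other members are given by range or for a role beside these. Some genes that enter the counts are not reported here by name. Partner genes named are among the 2 largest rises and 2 largest falls of a comparison. Alternatives were RLE factors, no count filter, a replicate block, the compared groups alone, DESeq2 1.42.0, CPM from library totals, and leaving out libraries.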

Additional observations from a re-analysis of the deposited data

Results flagged for a closer look

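The change on rechallenge was below that on first exposure in 24 members and above it in 10, by edgeR's test of the difference between the log2 changes (Benjamini-Hochberg adjusted), and the 3 largest differences in each direction among members with a mean of at least 1 CPM in a compared group are given. KCND3 rose by less on rechallenge, with a difference of -6.47 ± 0.29, adjusted p = 6.42e-18, from a starting level of 15.8 ± 0.694 CPM against 0.265 ± 0.135 before the first exposure. KCNQ3 differed by -4.99 ± 0.46, adjusted p = 1.51e-10. KCNK1 differed by -6.65 ± 1.53, adjusted p = 0.000814, a fitted value that depends on the small count added before the log, since no untreated library had a count. KCNQ5 fell on first exposure and rose on rechallenge, a difference of 2.35 ± 0.20, adjusted p = 1.63e-11. KCNJ12 differed by 2.35 ± 0.58, adjusted p = 0.00119. KCNJ10 differed by 3.28 ± 0.84, adjusted p = 0.00161, and without rechallenge replicate 1 the difference was 2.16 with an adjusted p of 0.202.

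The change at the second withdrawal was below that at the first in 9 members and above it in 2 by the same kind of test, and 5 are given by the same rule. KCNK1 rose by less at the second, a difference of -6.46 ± 0.51, adjusted p = 9.9e-10, as did KCNK3 at -1.50 ± 0.32, adjusted p = 0.00105, whose level was nonetheless higher after the second, 105 against 39.3 CPM. KCNK9 differed by -3.15 ± 0.87, adjusted p = 0.00974, and by -2.3 with an adjusted p of 0.107 without rechallenge replicate 2. At week 1, where the first withdrawal starts, KCNK1 and KCNK9 each had 4 counts in all, so the sizes of their differences are uncertain. KCNK2 differed by 1.30 ± 0.38, adjusted p = 0.0138. KCNAB1 differed by 0.87 ± 0.30, adjusted p = 0.0408, and this did not pass the threshold without any 1 of 7 libraries, among them week 1 replicate 2 (0.76, adjusted p = 0.135).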

How the results depend on the processing

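Of 265 tests of single members, 222 kept their side of the threshold under every alternative, and none changed direction. Some counts of members moved by over 1.5 times. Without the count filter, 7 members in place of 11 fell from 20 h to week 1. In that fit 1 in place of 2 had a higher log2 change at the second withdrawal than at the first. With the compared groups fitted alone, 7 in place of 12 rose on rechallenge and 5 in place of 8 fell at the second withdrawal. With that setting 0 in place of 2 had a higher change at the second withdrawal than at the first (4 at an unadjusted p under 0.05 in that edgeR fit, and 2 by DESeq2). Leaving out each library in turn gave 7 to 12 falls from 20 h to week 1 and 5 to 10 falls from week 1 to continuous week 4. It gave 1 to 3 members with a higher change at the second withdrawal than at the first. The cause was not tested. The replicate numbers did not pair the libraries: of 34 same-numbered pairs, 1 had deviations correlated over 0.1. With a replicate block, 22 members rose from untreated cells to week 1 and 12 fell from 20 h to week 1, and 16 in place of 14 were higher after rechallenge than in continuous week 3. Among those 265 tests the block changed the call of KCNH1 alone, between continuous week 3 and rechallenge (log2 change 0.4, adjusted p = 0.0343). Leaving out the 4 libraries that differed most from their groups, an alternative chosen after seeing the data, ended 12 calls and made 3. CPM from library totals moved 19 of 170 group means of members by over 1 SD. Members with few counts limit what can be seen: at these depths a member at 0 counts in a group may hold up to 3.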
